A study of Mus musculus with 119 samples.

Results

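Sphingosine kinase 1, the product of *Sphk1*, and 4 further genes of sphingosine 1-phosphate (S1P) handling were followed across every genotype, inhibitor, and time of a study of mouse bone marrow–derived macrophages (BMDMs). The 5 members, *Sphk1*, *Sphk2*, *Sgpl1*, *Sgpp1*, and *S1pr1*, were taken by gene symbol from the 18098 genes of the normalized expression table, and all 5 passed the filter on low values. They were chosen with earlier results of these data known: the induction of *Sphk1* by LPS in WT cells and its lower level at 2 h in cells with inactive TPL-2. Those values are therefore a description here, with no test, and the same holds for the other members in the WT and *Map3k8* arms, for every comparison of *Sphk1* with WT, and for differences from the WT response to LPS.

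S1P is a signaling lipid made from sphingosine by sphingosine kinases. It is broken down irreversibly by S1P lyase or returned to sphingosine by phosphatases, and S1P that leaves the cell acts on a family of G protein–coupled receptors. Sphingosine itself comes from ceramide, so the ceramide genes set the supply of the substrate. In macrophages SPHK1 is known as the inducible kinase, and TLR4, the receptor of LPS, activates the kinase TPL-2, which drives MKK1/2, ERK1/2, and RSK.

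The study asked which LPS-responsive genes depend on this kinase pathway. RNA-seq was done on 119 libraries in 25 groups, from BMDMs of C57BL/6(NIMR) mice left unstimulated or given LPS at 100 ng/ml. WT cells had 6 libraries each at 0, 0.5, and 1 h of LPS and 4 at 2 h. *Map3k8*[D270A] cells, whose TPL-2 lacks kinase activity, had 6 libraries at each of the 4 times. *Elk1*-/-*Elk4*-/- cells, without a pair of the ternary complex factors that ERK phosphorylates, had 4 libraries at each time. *Nfkb1*[SS/AA] cells, whose p105 cannot be phosphorylated by IKK so that TPL-2 is not activated, had 6 libraries each at 0, 0.5, and 1 h. WT cells pretreated for 10 min with the RSK inhibitor RSKi47 at 2 µM had 4 libraries at 0, 1, and 2 h and 3 at 0.5 h. WT cells pretreated for 10 min with the MKK1/2 inhibitor PD0325901 at 0.1 µM had 6 libraries at 0.5 h and 6 at 1 h of LPS, and 3 each after 10, 40, and 70 min of inhibitor without LPS, with 3 libraries of DMSO at 10 min.

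No label ties a WT library to the experiments with *Elk1*-/-*Elk4*-/- cells, *Nfkb1*[SS/AA] cells, or the inhibitors, apart from the 3 DMSO libraries labeled with PD0325901. In every comparison of these arms with WT the arm and the experiment therefore cannot be told apart, and LPS was never given with DMSO. Between the RSKi47 arm and WT without LPS, for example, 53.0% of all genes passed the test. For that reason the responses to LPS within an arm, and the differences between such responses, carry most of what follows. The RSKi47 libraries without LPS had 10 min of inhibitor, so LPS and longer inhibitor time cannot be told apart in that arm's responses. The depth of each library is unknown from normalized values, and the study's methods call the replicates biological but no source used here says that they were separate cultures or animals, so p values measure the spread between these samples. Values are the deposited log2 values, and a fold is 2 raised to a difference on that scale. No source used here gives the transformation behind the scale, and genes near silence sit at an almost constant value (*S1pr5* between -2.17 and -2.12 in all libraries), so differences at low levels may be understated.

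Macrophage markers were high in every library. The summed linear value of 7 neutrophil markers was 815 to 1591 in *Elk1*-/-*Elk4*-/- libraries against 64 to 177 in WT and 59 to 159 in *Map3k8*[D270A] libraries, and between 86 and 354 in the *Nfkb1*[SS/AA], RSKi47, and PD0325901 libraries. The part of this difference in the *Elk1*-/-*Elk4*-/- results was not tested. The 4 endothelial markers summed to 129 to 627 over these arms, nearly all of it *Kdr*, and the 5 lymphocyte markers to 9 to 17. *Elk1* was at 6.17 to 6.59 in *Elk1*-/-*Elk4*-/- libraries and 9.04 to 9.49 in WT, and *Elk4* at 5.51 to 5.88 and 7.57 to 8.49, so both were lower in every mutant library. The D270A and SS/AA alleles are point mutations, and mRNA level does not check them. In bulk RNA, fewer cells of a type and less RNA per cell cannot be told apart.

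The promoter sequences of RefSeq (GRCm38.p6) show how the kinase genes differ upstream of their starts. *Sphk1* (chromosome 11, 116530836 to 116536675) has 5 annotated start windows and *Sphk2* (chromosome 7, 45709463 to 45718002) has 2. *Sgpl1* (chromosome 10, 61098642 to 61147684) and *Sgpp1* (chromosome 12, 75714248 to 75735729) have 1 each. *S1pr1* (chromosome 3, 115710433 to 115715055) was not in the promoter table. The 250 bases before each start were searched on both strands for the AP-1 motif TGANTCA, which FOS and JUN proteins bind, the core ETS motif CCGGAA of the family of ELK1 and ELK4, the CRE motif TGACGTCA, and the CArG box of serum response factor. *Sphk1* held 1 AP-1 match, 50 bases before the start at 116531837, and 1 ETS match 83 bases before it. The same sites lie 124 and 157 bases before the next start. The 2 stretches of 30 bases around them, of which all bases (AP-1) and 28 bases (ETS) lie in exon 1 of an annotated GENCODE transcript, are printed with the match in capitals. The 250 bases before the start at 116532444, the only *Sphk1* window that touches no annotated exon, and those before the first *Sphk2* start are printed for comparison.

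*Sphk1* AP-1 match, chr11:116531775-116531804, plus strand: tgagcgtgtcgcTGAGTCAccttctcggaa

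*Sphk1* ETS match, chr11:116531742-116531771, plus strand: ttggttggttgtTTCCGGgagtttctccac

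*Sphk1* window 4, chr11:116532194-116532443, plus strand: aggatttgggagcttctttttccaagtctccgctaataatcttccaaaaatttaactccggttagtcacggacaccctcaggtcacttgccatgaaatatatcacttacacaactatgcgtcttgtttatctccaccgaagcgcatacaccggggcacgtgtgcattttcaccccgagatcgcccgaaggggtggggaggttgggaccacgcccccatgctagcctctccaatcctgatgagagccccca

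*Sphk2* first window, chr7:45718003-45718252, minus strand: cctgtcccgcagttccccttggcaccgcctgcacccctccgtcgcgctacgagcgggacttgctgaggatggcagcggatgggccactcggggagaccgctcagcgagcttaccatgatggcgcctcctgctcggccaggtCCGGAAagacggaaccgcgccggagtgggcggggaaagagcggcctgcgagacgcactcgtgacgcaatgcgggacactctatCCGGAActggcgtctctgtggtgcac

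The *Sphk2* window held 2 ETS matches, 109 and 26 bases before the start, and no AP-1 match. *Sgpl1* and *Sgpp1* held 1 ETS match each, 17 and 191 bases before the start, and no AP-1 match, and no window of the 4 genes held a CRE or CArG match. Of 32851 windows of 27025 genes, 6.75% held AP-1, 12.0% ETS, 1.55% CRE, and 1.47% CArG letters. A match describes letters only, and the absence of one says only that those letters are not in that window.

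*Sphk1*, the inducible kinase, stayed near the filter limit (log2 value 3.32) in unstimulated WT cells, with a lowest library at 2.80, a median of 2.92, and a highest of 3.08. At 0.5 h the lowest, median, and highest were 2.81, 3.04, and 3.35, and at 1 h 3.36, 3.99, and 4.34. The 4 WT libraries at 2 h read 7.72, 7.97, 9.66, and 7.34, all far above every other library of the study. The mean went from 2.93 ± 0.12 (SD, n = 6) through 3.93 ± 0.35 (SD, n = 6) at 1 h to 8.17 ± 1.02 (SD, n = 4) at 2 h, a difference of 5.25 (SE 0.22) or 38-fold over unstimulated cells. On this log2 scale 1.01 (SE 0.20) of the increase was present at 1 h. Replicate 6 was the highest of the WT libraries at 2 h, and without it the difference from unstimulated cells was 4.73.

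In *Map3k8*[D270A] cells, without TPL-2 kinase activity, *Sphk1* had a lowest library of 2.82, a median of 2.91, and a highest of 3.37 unstimulated. At 1 h these were 3.04, 3.40, and 4.07, and at 2 h 3.82, 4.39, and 4.96. The mutant and WT libraries overlapped at 0, 0.5, and 1 h and were separate at 2 h, where the difference was -3.78 (SE 0.22), a level 13.8-fold lower. Within the mutant arm the 2 h libraries were above the unstimulated ones by 1.39 (SE 0.20), with no overlap. At 1 h the difference was -0.47 (SE 0.20). WT replicates 4 to 6 against mutant replicates 1 to 3 gave -0.90 at 1 h and -3.79 at 2 h, and WT replicates 7 to 9, with a single library at 2 h, gave -0.04 and -3.22 against mutant replicates 4 to 6. These sets were matched by the order of their numbers only, since no label ties WT to mutant replicates.

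**Figure D1:**
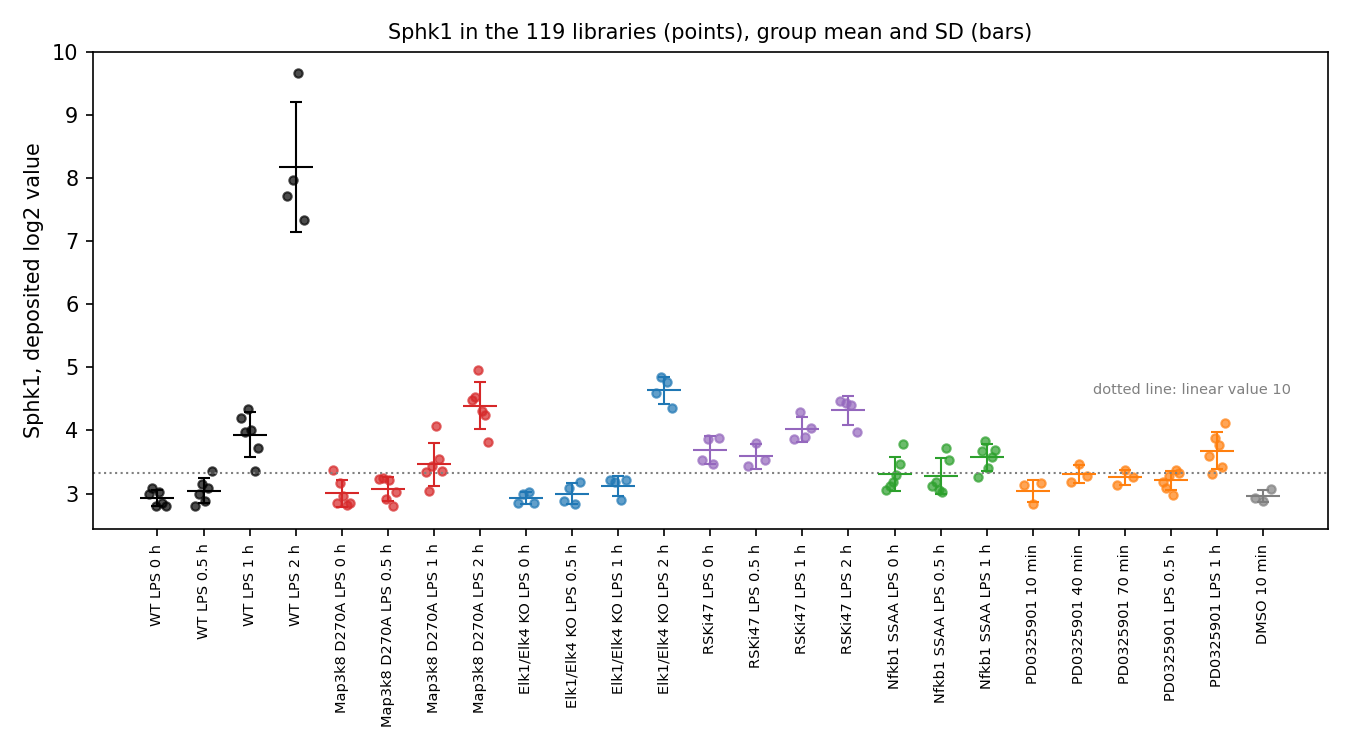
Deposited log2 value of *Sphk1* (vertical axis) in each of the 119 libraries (points) by group, with the group mean and SD (bars) and a dotted line at the linear value of 10 used as the filter limit. The 4 WT libraries at 2 h of LPS lie between 7.34 and 9.66 and the highest of all other libraries, of *Map3k8*[D270A] cells at 2 h, is at 4.96.

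*Sphk1* also fell short of its WT level at 2 h in cells without ELK1 and ELK4. The 4 *Elk1*-/-*Elk4*-/- libraries read 2.85, 2.99, 3.02, and 2.85 unstimulated, 3.21, 3.19, 2.89, and 3.21 at 1 h, and 4.59, 4.84, 4.76, and 4.36 at 2 h. The 2 h libraries lay above all earlier libraries of this arm and below all WT libraries at 2 h. Within the arm the rise at 2 h was 1.71 (SE 0.24), or 3.27-fold (limma, adjusted p = 1.01e-08), and at 1 h the difference of 0.20 did not pass the test (adjusted p = 0.6). Against WT the difference was 0.00 unstimulated, -0.05 (SE 0.22) at 0.5 h, -0.81 (SE 0.22) at 1 h, and -3.54 (SE 0.24) at 2 h. The WT libraries are those whose *Sphk1* level led to its choice, so these differences are given with no test.

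In the RSKi47 arm *Sphk1* was higher without LPS than in WT and rose less. Inhibitor and experiment cannot be told apart in the differences from WT, nor LPS and inhibitor time in the rise. The RSKi47 libraries read 3.53, 3.87, 3.46, and 3.88 without LPS, 3.43, 3.80, and 3.53 at 0.5 h, 3.86, 4.29, 3.89, and 4.04 at 1 h, and 4.47, 4.43, 4.40, and 3.98 at 2 h. All resting libraries of this arm lay above all 6 resting WT libraries, by 0.76 (SE 0.19) in the means. At 0.5 h the difference from WT was 0.54 (SE 0.21). The rise within the arm was 0.34 (SE 0.21, limma, adjusted p = 0.245) at 1 h and 0.63 (SE 0.21) or 1.55-fold at 2 h (adjusted p = 0.00541), which was lost without RSKi47 replicate 1 (0.53, adjusted p = 0.052) or 3 (adjusted p = 0.0533). At 2 h the difference from WT was -3.85 (SE 0.21), a level 14.5-fold lower. The differences from WT rest on the same WT libraries and have no test here.

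The response of *Sphk1* to 2 h of LPS, taken within each arm, was smaller than that of WT by 3.54 on the log2 scale in *Elk1*-/-*Elk4*-/- cells (difference -3.54, SE 0.28) and by more with RSKi47 (difference -4.61, SE 0.28). Both rest on the WT libraries that led to the choice of the gene and are given as a description. The responses of these 2 arms can be compared with each other without WT. The RSKi47 response was -1.07 (SE 0.29) relative to that of *Elk1*-/-*Elk4*-/- cells (limma, adjusted p = 0.00462). In the means the RSKi47 arm started from 3.68 and ended at 4.32, and the *Elk1*-/-*Elk4*-/- arm went from 2.93 to 4.64. The RSKi47 reference had 10 min of inhibitor, so LPS and inhibitor time cannot be told apart in this difference.

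The remaining arms were followed to 1 h, when WT cells were at 1.01 (SE 0.20) above unstimulated. In *Nfkb1*[SS/AA] cells the lowest, median, and highest *Sphk1* libraries were 3.05, 3.24, and 3.78 unstimulated and 3.26, 3.63, and 3.83 at 1 h. These ranges overlapped, and the response of 0.26 (SE 0.17) did not pass the test (limma, adjusted p = 0.226). The unstimulated level was 0.39 (SE 0.17) above that of WT, and the response at 1 h differed from the WT response by -0.75 (SE 0.24). With PD0325901 the libraries at 1 h of LPS had a lowest of 3.31, a median of 3.68, and a highest of 4.11, against 3.14, 3.38, and 3.26 after 70 min of inhibitor alone. The difference was 0.42 (SE 0.21, adjusted p = 0.0926), and against 10 min of inhibitor alone it was 0.64 (SE 0.21) and passed the test (adjusted p = 0.00817). The difference from the WT response was -0.59 (SE 0.27), and -0.37 with the 10 min reference. All differences from WT rest on the WT libraries that led to the choice of the gene and have no test here. PD0325901 alone read 3.13, 2.84, and 3.16 at 10 min beside 2.93, 2.88, and 3.07 with DMSO, so *Sphk1* overlapped between them (difference 0.08, SE 0.24). At 1 h of LPS the level of *Sphk1* was lower in *Elk1*-/-*Elk4*-/- cells than in 3 arms: *Nfkb1*[SS/AA] was higher by 0.45 (SE 0.19, limma, adjusted p = 0.0321), PD0325901 by 0.55 (SE 0.19, adjusted p = 0.0091), and RSKi47 by 0.90 (SE 0.21, adjusted p = 1.34e-04). The *Nfkb1*[SS/AA] call was lost without *Elk1*-/-*Elk4*-/- replicate 3 (0.37, adjusted p = 0.121) or *Nfkb1*[SS/AA] replicate 2, 3, or 6 (0.43, 0.40, and 0.42, adjusted p = 0.0561, 0.0704, and 0.0511), and the PD0325901 call without *Elk1*-/-*Elk4*-/- replicate 3 (0.48, adjusted p = 0.0508). RSKi47 was above *Nfkb1*[SS/AA] by 0.45 (SE 0.19, adjusted p = 0.0372), a call lost with a replicate block (adjusted p = 0.052), without RSKi47 replicate 2 or 4 (0.36 and 0.44, adjusted p = 0.149 and 0.0642), and without *Nfkb1*[SS/AA] replicate 1 or 4 (0.38 and 0.41, adjusted p = 0.09 and 0.068). Neither arm differed from PD0325901 past the test. The 1 h responses differed from that of *Elk1*-/-*Elk4*-/- cells by 0.06 in *Nfkb1*[SS/AA] cells, 0.22 with PD0325901, and 0.14 with RSKi47, none past the test (adjusted p = 0.964, 0.884, and 0.979). Arm and experiment cannot be told apart in these levels. Over all 25 groups, WT at 2 h was the only one whose libraries did not overlap with those of the group next in order, *Elk1*-/-*Elk4*-/- cells at 2 h, and each group below that overlapped with its neighbor. In all, 60 of the 119 libraries were at or above the filter limit.

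*S1pr1*, the S1P receptor through which S1P gradients direct cell movement, went the other way from *Sphk1* and was lower at 2 h of LPS in all 4 arms that had this time. In WT libraries the lowest, median, and highest were 10.93, 11.00, and 11.03 unstimulated and 10.83, 10.91, and 11.06 at 1 h, and the 2 h libraries read 10.15, 10.14, 10.61, and 10.07. The 2 h libraries lay below all others of WT, with a difference from unstimulated of -0.75 (SE 0.08), a level 1.68-fold lower. *Map3k8*[D270A] libraries went from a median of 10.95 to 9.87 at 2 h (lowest 9.75, highest 10.16), a difference of -1.03 (SE 0.07). At 2 h they overlapped with WT, and the difference of -0.34 (SE 0.08) became -0.21 without WT replicate 6. With the sets matched by number as above it was -0.53 for WT replicates 4 to 6 and -0.02 for the single WT library of replicates 7 to 9, a value with no spread of its own.

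*S1pr1* also fell without ELK1 and ELK4 or with RSKi47. The *Elk1*-/-*Elk4*-/- libraries read 10.78, 11.04, 10.93, and 10.79 unstimulated and 9.41, 9.72, 9.82, and 9.57 at 2 h, a difference of -1.25 (SE 0.08, 2.38-fold lower, limma, adjusted p = 1.18e-19). At 1 h the level had not moved (difference -0.03, SE 0.08, adjusted p = 0.812). The 2 h libraries lay below all 4 WT libraries, with a difference of -0.61 (SE 0.08, adjusted p = 2.17e-08). RSKi47 libraries read 10.56, 10.57, 10.62, and 10.54 without LPS, 10.62, 10.30, 10.36, and 10.29 at 1 h, and 9.37, 9.39, 9.43, and 9.40 at 2 h. Their fall at 2 h was -1.18 (SE 0.07, adjusted p = 9.32e-28). They were also below every WT library at rest, by -0.42 (SE 0.07, adjusted p = 1.11e-07), and by -0.85 (SE 0.07, adjusted p = 6.12e-18) at 2 h. With single replicates left out the 2 h difference was -0.90 to -0.72. DMSO libraries, with no inhibitor, had a mean of 10.69 beside 10.99 in unstimulated WT cells. Inhibitor and experiment cannot be told apart in these differences of RSKi47 from WT.

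The 2 h response of *S1pr1* differed from that of WT by -0.51 (SE 0.10) in *Elk1*-/-*Elk4*-/- cells and by -0.43 (SE 0.10) with RSKi47. Set against WT replicates 7 to 9 alone, with a single library at 2 h, they were -0.36 and -0.28. These hold the WT response, which is a description here, and are given with no test. Between the 2 arms without WT the response differed by 0.08 (SE 0.10, limma, adjusted p = 0.693).

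*S1pr1* also fell between 10 and 70 min of PD0325901 without LPS. The libraries read 10.66, 10.68, and 10.69 at 10 min, 10.58, 10.58, and 10.60 at 40 min, and 10.27, 10.36, and 10.35 at 70 min, with no overlap between the times. DMSO libraries at 10 min read 10.69, 10.67, and 10.72. The difference between 70 and 10 min was -0.35 (SE 0.08, limma, adjusted p = 0.0032), and -0.33 without PD0325901 replicate 1 (adjusted p = 0.0778). With DMSO analysed here at 10 min only, time and inhibitor cannot be told apart. With LPS for 1 h the lowest, median, and highest libraries were 10.60, 10.62, and 10.67, all above the 70 min libraries, by 0.29 (SE 0.07, adjusted p = 4.45e-04). At 0.5 h the difference from 40 min alone was 0.21 (SE 0.07, adjusted p = 0.0384), a call lost without PD0325901 replicate 1, 2, 3, or 5 (0.21, adjusted p = 0.132; 0.18, adjusted p = 0.27; 0.22, adjusted p = 0.0813; and 0.20, adjusted p = 0.0614). Set against 10 min of inhibitor alone instead, *S1pr1* differed by 0.12 (SE 0.07, adjusted p = 0.4) at 0.5 h and by -0.06 (SE 0.07, adjusted p = 0.585) at 1 h of LPS, so the direction at 1 h depends on the reference and none is drawn. The difference of the 1 h response from that of WT, whose reference is unstimulated cells, was 0.36 (SE 0.09) with the 70 min reference and 0.01 with the 10 min reference, given with no test. RSKi47 was analysed without LPS at 10 min only, and its change at 1 h was -0.18 (SE 0.07, adjusted p = 0.0545). Relative to PD0325901 this was -0.47 (SE 0.10, adjusted p = 7.88e-04) with the 70 min reference and -0.12 (SE 0.10, adjusted p = 0.676) with the 10 min reference, so no difference between the inhibitors is drawn. In *Nfkb1*[SS/AA] cells *S1pr1* had a lowest of 10.63, a median of 10.86, and a highest of 10.93 unstimulated. The difference at 0.5 h was 0.13 (SE 0.06, adjusted p = 0.135, and 0.0432 with a replicate block), and that at 1 h was 0.06 (SE 0.06, adjusted p = 0.418). Against WT, PD0325901 libraries with LPS were lower by -0.27 at 0.5 h (adjusted p = 1.96e-04) and -0.30 at 1 h (adjusted p = 2.83e-05), without overlap. The DMSO libraries of that experiment, with no inhibitor, had a mean of 10.69 beside 10.99 in unstimulated WT cells, so inhibitor and experiment cannot be told apart in these values.

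**Figure D2:**
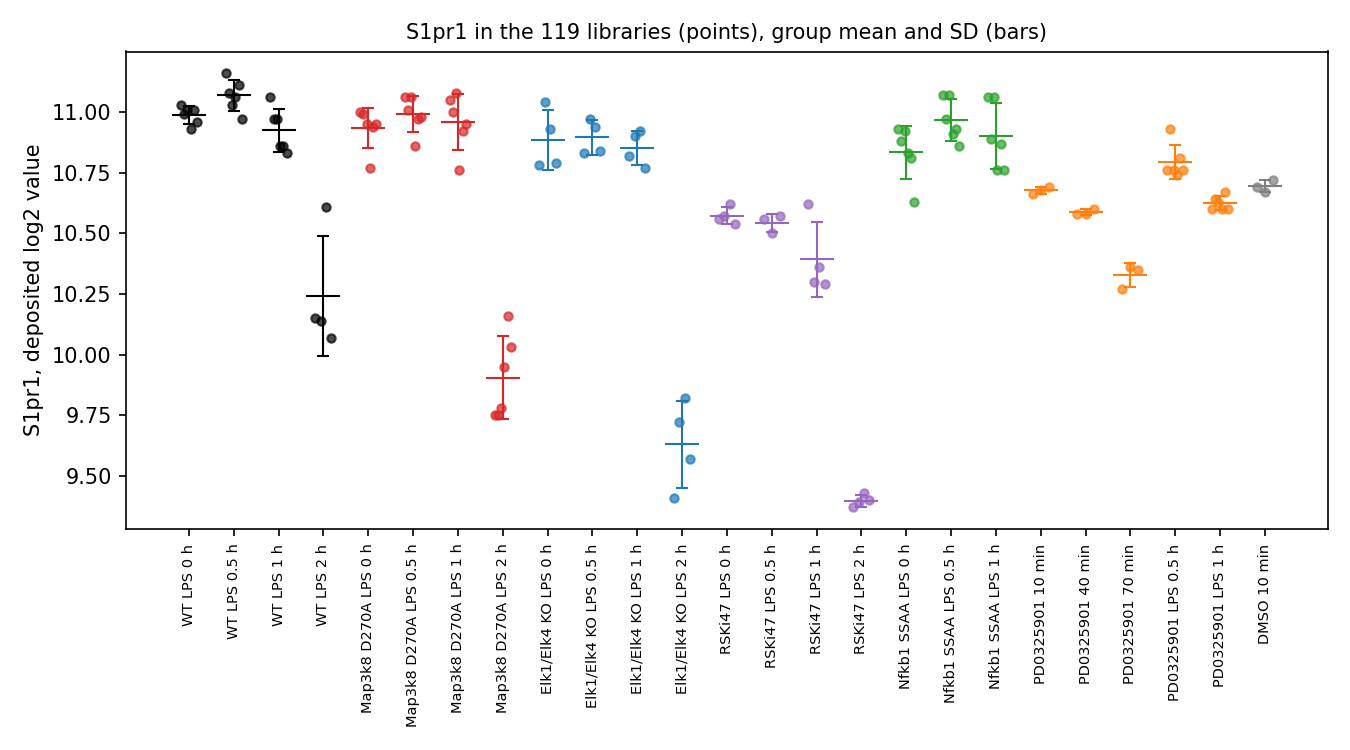
Deposited log2 value of *S1pr1* (vertical axis) in each of the 119 libraries (points) by group, with the group mean and SD (bars). The 4 groups at 2 h of LPS are the lowest, from a mean of 10.24 in WT to 9.40 with RSKi47, and the PD0325901 groups without LPS step down from 10.68 at 10 min to 10.33 at 70 min.

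*Sphk2*, the kinase that is present without stimulation and is partly nuclear, was lower at 1 and 2 h of LPS in each arm with these times. In WT it had a lowest of 11.01, a median of 11.08, and a highest of 11.11 unstimulated, 10.71, 10.77, and 10.80 at 1 h, and 10.52, 10.66, 10.49, and 10.47 at 2 h, with no overlap between these times. The WT difference at 2 h was -0.53 (SE 0.04, 1.45-fold lower) and that of *Map3k8*[D270A] cells -0.51 (SE 0.04), and at 2 h the 2 genotypes differed by 0.00 (SE 0.04). In *Elk1*-/-*Elk4*-/- cells the change was -0.31 (SE 0.05, limma, adjusted p = 1.17e-07) at 1 h and -0.35 (SE 0.05, adjusted p = 2.27e-09) at 2 h, and with RSKi47 -0.25 (SE 0.05, adjusted p = 1.34e-05) and -0.58 (SE 0.05, adjusted p = 2.22e-19). At 1 h it was -0.18 (SE 0.04, adjusted p = 8.56e-05) in *Nfkb1*[SS/AA] cells and -0.40 (SE 0.05, adjusted p = 1.29e-11) with PD0325901. The last value was taken from the 70 min libraries, 11.27, 11.11, and 11.09, which lay above the 10 min libraries, 10.98, 10.91, and 10.84, by 0.25 (SE 0.06, adjusted p = 0.00178, and 0.0508 without PD0325901 replicate 1). Taken from the 10 min libraries it was -0.16 (SE 0.05, adjusted p = 0.00699).

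Of the comparisons between LPS responses of *Sphk2* without WT, 2 passed the test, and both calls depended on the libraries in the fit. At 1 h that of PD0325901 relative to *Nfkb1*[SS/AA] was -0.22 (SE 0.06, limma, adjusted p = 0.0242). With 10 min of inhibitor alone as reference it was 0.03 (SE 0.06, adjusted p = 0.935), so no difference is drawn. The call was also lost with only the groups compared in the fit (adjusted p = 0.199) and without PD0325901 replicate 1 (-0.15, adjusted p = 0.432) or *Nfkb1*[SS/AA] replicate 4 or 6 (-0.20 and -0.21, adjusted p = 0.0775 and 0.0562). At 2 h RSKi47 differed from *Elk1*-/-*Elk4*-/- cells by -0.23 (SE 0.07, adjusted p = 0.0115), lost with only the groups compared (adjusted p = 0.0767) and without *Elk1*-/-*Elk4*-/- replicate 4 (-0.15, adjusted p = 0.176). LPS and inhibitor time cannot be told apart in it. The 2 h response of *Elk1*-/-*Elk4*-/- cells differed from that of WT by 0.18 (SE 0.07), and by 0.10 without *Elk1*-/-*Elk4*-/- replicate 4, both with no test. In level, RSKi47 libraries had more *Sphk2* than WT, by 0.16, 0.18, and 0.22 at 0, 0.5, and 1 h (adjusted p = 0.00136, 0.00148, and 3.15e-05), and *Elk1*-/-*Elk4*-/- libraries had less at 0, 0.5, and 1 h, by -0.16, -0.19, and -0.17 (adjusted p = 0.0013, 2.79e-04, and 7.16e-04). Unstimulated means were 10.91 in *Elk1*-/-*Elk4*-/- and 11.07 in WT cells, and DMSO libraries, with no inhibitor, also had a mean of 10.91. Arm and experiment cannot be told apart in these levels. The RSKi47 difference at 2 h, 0.11 (adjusted p = 0.0439), was lost without WT replicate 4, 6, or 7 (0.11, 0.10, and 0.09, adjusted p = 0.0871, 0.125, and 0.144) or RSKi47 replicate 2, 3, or 4 (0.12, 0.10, and 0.11, adjusted p = 0.0645, 0.138, and 0.0927).

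*Sgpp1*, an S1P phosphatase of the endoplasmic reticulum, was also lower after LPS. WT libraries had a lowest of 11.02, a median of 11.04, and a highest of 11.14 unstimulated, 10.76, 10.82, and 10.88 at 1 h, and read 10.41, 10.34, 10.44, and 10.55 at 2 h. All WT libraries at 2 h lay below those at 1 h, with a difference from unstimulated of -0.62 (SE 0.04, 1.54-fold lower), and *Map3k8*[D270A] cells gave -0.57 (SE 0.03). *Elk1*-/-*Elk4*-/- libraries read 11.20, 11.24, 11.16, and 11.26 unstimulated and 10.71, 10.77, 10.73, and 10.65 at 2 h. The change was -0.50 (SE 0.04, limma, adjusted p = 9.12e-16), and at each time this arm lay above WT, by 0.16 to 0.28 (adjusted p = 3.65e-04 unstimulated and 2.15e-07 at 2 h). *Nfkb1*[SS/AA] cells lay below WT by -0.18, -0.21, and -0.18 at 0, 0.5, and 1 h (adjusted p = 3.99e-04, 3.73e-05, and 2.69e-04). The change at 1 h was -0.24 (SE 0.04, adjusted p = 9.99e-07) in these cells, -0.25 (SE 0.05, adjusted p = 2.91e-05) with PD0325901 (-0.16, adjusted p = 0.00908, against 10 min of inhibitor alone), and -0.14 (SE 0.05, adjusted p = 0.0323) with RSKi47, the last lost without RSKi47 replicate 2 or 3 (adjusted p = 0.069 and 0.141). At 0.5 h the *Nfkb1*[SS/AA] change was -0.09 (SE 0.04, adjusted p = 0.127, and 0.032 with a replicate block). RSKi47 gave -0.39 (SE 0.05, adjusted p = 1.81e-10) at 2 h, a response that differed from WT by 0.23 (SE 0.07), and by 0.14 against WT replicates 7 to 9 alone, both with no test.

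*Sgpl1*, which encodes S1P lyase, the enzyme of irreversible breakdown, moved least. Its libraries had a lowest of 13.64 and a highest of 13.77 in unstimulated WT cells, and at 2 h they read 13.85, 13.85, 13.88, and 13.83, all above. The difference was 0.15 (SE 0.04) in WT and 0.15 (SE 0.03) in *Map3k8*[D270A] cells. It was 0.08 (SE 0.04) in *Elk1*-/-*Elk4*-/- cells (limma, adjusted p = 0.0665, and 0.0108 with a replicate block). With RSKi47 it was also 0.08 (SE 0.04, adjusted p = 0.0814, and 0.0217 with a replicate block). With quantile normalization, however, *Sgpl1* was lower at 2 h in all 4 arms, by -0.26, -0.20, -0.37, and -0.28. No direction for *Sgpl1* after LPS is therefore drawn. At 1 h its changes were 0.01 in *Elk1*-/-*Elk4*-/- cells, 0.02 in *Nfkb1*[SS/AA] cells, 0.03 with PD0325901, and 0.01 with RSKi47, none past the test. *Nfkb1*[SS/AA] cells had more *Sgpl1* than WT at 0, 0.5, and 1 h, by 0.09, 0.12, and 0.10 (adjusted p = 0.0348, 0.0021, and 0.00762), with overlapping libraries. With WT replicates 4 to 6 only these were 0.06, 0.07, and 0.07 (adjusted p = 0.29, 0.15, and 0.188) and with quantile normalization 0.05, 0.07, and 0.06 (adjusted p = 0.313, 0.142, and 0.147). The unstimulated call was also lost without WT replicate 7, 8, or 9 (0.08, 0.07, and 0.08, adjusted p = 0.0613, 0.083, and 0.0548) or *Nfkb1*[SS/AA] replicate 1, 5, or 6 (0.08 each, adjusted p = 0.0543, 0.0782, and 0.0672).

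**Figure D3:**
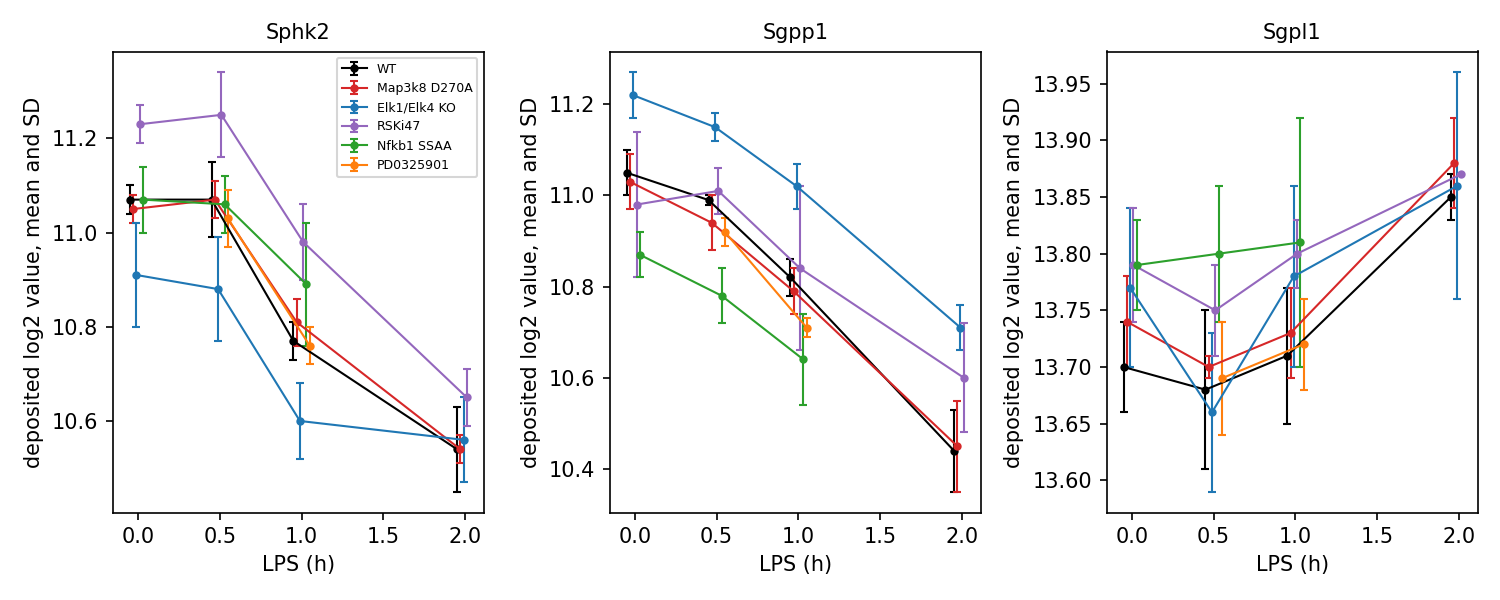
Mean and SD of the deposited log2 value (vertical axes, each with its own range) of *Sphk2*, *Sgpp1*, and *Sgpl1* over hours of LPS (horizontal axes) in the 6 arms with LPS. *Sphk2* and *Sgpp1* step down from 1 h on in each arm, and the group means of *Sgpl1* stay within 13.66 to 13.88, a range in which its direction turned with quantile normalization.

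In WT the unstimulated and LPS libraries did not overlap for 1, 3, and 5 members at 0.5, 1, and 2 h, and in *Map3k8*[D270A] cells for 0, 2, and 5. Of 11884 genes tested, 11.6%, 46.8%, and 71.5% passed in WT and 5.08%, 41.9%, and 69.5% in *Map3k8*[D270A] cells at these times. Between *Map3k8*[D270A] and WT cells, 0, 0, 0, and 1 member (*Sphk1*) did not overlap at 0, 0.5, 1, and 2 h, where 1.44%, 1.37%, 9.79%, and 27.7% of genes passed. Non-overlap of libraries and calls by limma are different measures, and nothing is read from setting them side by side, since the contrasts chose the members.

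Within *Elk1*-/-*Elk4*-/- cells 0 members passed the test at 0.5 h, 2 fell at 1 h, and 1 rose and 3 fell at 2 h, beside 4.96%, 33.3%, and 67.2% of all genes. RSKi47 gave the same counts, beside 5.10%, 29.0%, and 62.2%. In *Nfkb1*[SS/AA] cells 0 members passed at 0.5 h and 2 fell at 1 h, beside 14.6% and 44.4%. With a replicate block *S1pr1* and *Sgpp1* passed at 0.5 h (limma, adjusted p = 0.0432 and 0.032). With PD0325901, 1 member rose at 0.5 h, and 1 rose and 2 fell at 1 h, beside 14.9% and 43.6%. The member that rose at both times was *S1pr1*, and with 10 min of inhibitor alone as reference its calls were lost and *Sphk1* passed at 1 h. PD0325901 against DMSO at 10 min gave 0 members and 0% of all genes (limma, with 245 of 11971 genes at an unadjusted p under 0.05), and 70 against 10 min of inhibitor gave 1 member up and 1 down beside 6.09%. With 5 members each of these counts rests on few genes, and both calls of the last comparison, *Sphk2* up and *S1pr1* down, were lost without PD0325901 replicate 1.

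Against WT, *Elk1*-/-*Elk4*-/- cells had 2, 2, 3, and 3 members past the test at 0, 0.5, 1, and 2 h, beside 51.8%, 44.4%, 53.4%, and 50.8% of all genes, and RSKi47 had 4, 3, 3, and 4, beside 53.0%, 48.2%, 52.8%, and 52.1%. *Nfkb1*[SS/AA] cells had 3, 2, and 3 at 0, 0.5, and 1 h, beside 32.0%, 32.3%, and 42.5%, and PD0325901 had 1 and 2 at 0.5 and 1 h, beside 29.4% and 35.7%. *Sphk1* is in the *Elk1*-/-*Elk4*-/- counts at 1 and 2 h and in the RSKi47 counts at 0, 0.5, and 2 h, and nothing is read from it. The *Nfkb1*[SS/AA] count at 0 h holds *S1pr1* (-0.15, adjusted p = 0.0407), a call lost without WT replicate 4, 5, or 8 or *Nfkb1*[SS/AA] replicate 4, 5, or 6 (-0.15 to -0.11, adjusted p = 0.0575 to 0.166). The PD0325901 count at 1 h holds *Sgpp1* (-0.11, adjusted p = 0.0341), lost without WT replicate 4, 7, 8, or 9 or PD0325901 replicate 1, 2, or 5 (-0.11 to -0.10, adjusted p = 0.0501 to 0.0826), and DMSO libraries had a mean of 10.91 beside 11.05 in unstimulated WT cells. The RSKi47 counts at 0 and 1 h hold *Sgpl1* (0.09 at both, adjusted p = 0.0431 and 0.0316), lost without WT replicate 7 or 8 or RSKi47 replicate 2 or 4 at both times and without WT replicate 6 or 9 at 0 h (0.06 to 0.09, adjusted p = 0.0551 to 0.207). Levels at 1 h were also compared between the 4 arms other than WT and *Map3k8*[D270A]. From 3 to 4 members passed in each of the 6 pairs: *Nfkb1*[SS/AA] and *Elk1*-/-*Elk4*-/- (62.6% of all genes), PD0325901 and *Elk1*-/-*Elk4*-/- (55.7%), RSKi47 and *Elk1*-/-*Elk4*-/- (54.6%), PD0325901 and *Nfkb1*[SS/AA] (32.3%), RSKi47 and *Nfkb1*[SS/AA] (55.1%), and RSKi47 and PD0325901 (53.9%). *Sgpl1* between PD0325901 and *Nfkb1*[SS/AA] (-0.09, limma, adjusted p = 0.0339) was lost in 7 of 12 fits with a single replicate left out. *Sgpp1* was lost in 1 of 10 such fits between RSKi47 and *Elk1*-/-*Elk4*-/- and in 2 of 10 between RSKi47 and PD0325901. Losses of *Sphk1* calls are given above.

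Differences between LPS responses were rarer among all genes. In the same 6 pairs, in that order, 4.21%, 2.40%, 2.58%, 4.03%, 4.65%, and 6.26% of genes passed, and of the members 0, 0, 0, 1 (*Sphk2*), 0, and 1 (*S1pr1*). Neither call passed with 10 min of PD0325901 alone as reference. At 2 h, 2 members (*Sphk1* and *Sphk2*) differed between RSKi47 and *Elk1*-/-*Elk4*-/- cells, beside 16.8%, with LPS and RSKi47 time not told apart. Differences from the WT response hold the WT contrast that chose the members, so members are not counted in them. Of all genes, 17.8% passed in *Elk1*-/-*Elk4*-/- cells and 21.0% with RSKi47 at 2 h, and 6.07% in *Nfkb1*[SS/AA] cells and 3.58% with PD0325901 at 1 h.

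**Figure D4:**
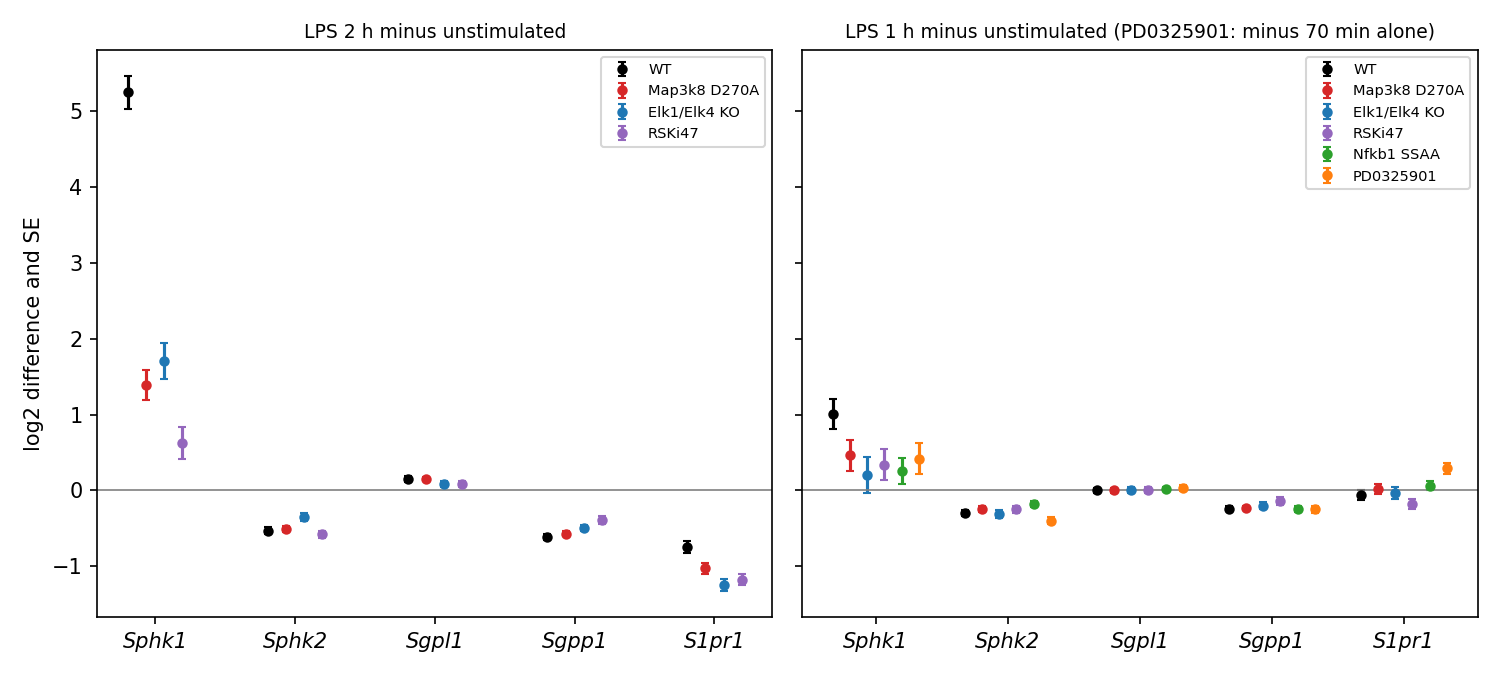
Difference between LPS and unstimulated libraries on the log2 scale, with its SE, for the 5 members at 2 h in 4 arms (left) and at 1 h in 6 arms (right, with PD0325901 set against 70 min of inhibitor alone). *Sphk1* in WT at 2 h stands at 5.25 against 0.63 to 1.71 in the other arms, and *S1pr1* lies between -1.25 and -0.75.

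The other genes of the pathway were taken from lists of S1P receptors, of S1P export and breakdown, of ceramide synthesis, and of ceramide breakdown and conversion. Of 4 further receptors, *S1pr2* was expressed at 10.24 to 11.83, *S1pr4* passed the filter in 30 libraries, and *S1pr3* and *S1pr5* passed in none. *S1pr2*, a receptor known to restrain cell migration, was lower at 1 and at 2 h: in WT the difference was -1.08 (SE 0.07, limma, adjusted p = 9.94e-21) at 1 h and -0.63 (SE 0.07, adjusted p = 6.96e-11) at 2 h. It was -0.95 (adjusted p = 2.86e-18) and -0.30 (adjusted p = 6.42e-05) in *Map3k8*[D270A] cells and -0.86 (adjusted p = 3.81e-13) and -0.24 (adjusted p = 0.00712) in *Elk1*-/-*Elk4*-/- cells. With RSKi47 it was -0.79 (adjusted p = 3.64e-17) and -0.69 (adjusted p = 7.49e-15). *S1pr4* fell at 2 h in WT by -0.39 (adjusted p = 2.42e-04), near the filter limit. Both tested receptors fell at 2 h in all 4 arms, where 71.5% (WT), 69.5% (*Map3k8*[D270A]), 67.2% (*Elk1*-/-*Elk4*-/-), and 62.2% (RSKi47) of all genes passed, and the counts of the other lists at 2 h stand beside the same shares.

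Of the 8 export and breakdown genes, 5 were tested, and at 2 h 4 rose in WT beside 71.5% of all genes called (limma, median difference of the list 0.64 against -0.02 over all genes). *Plpp3*, a cell-surface lipid phosphatase that removes S1P outside the cell, rose by 1.68 (SE 0.14, adjusted p = 2.22e-16) in WT, by 0.97 (SE 0.12, adjusted p = 5.07e-10) in *Map3k8*[D270A] cells, and by 0.91 (SE 0.15, adjusted p = 3.67e-07) in *Elk1*-/-*Elk4*-/- cells. *Abcc1*, a transporter that exports S1P, rose by 0.96 (SE 0.06, adjusted p = 1.92e-20) in WT. *Map3k8*[D270A] cells had 3 up and 1 down, *Elk1*-/-*Elk4*-/- cells 4 up, and RSKi47 3 up. The dedicated S1P exporters *Spns2* and *Mfsd2b* and the phosphatase *Sgpp2* were below the filter limit in all libraries.

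Ceramide synthesis genes went both ways. Of 17 listed, 13 were tested, and at 2 h in WT 4 rose and 8 fell (median -0.14), beside 71.5% of all genes called. *Cers6*, a ceramide synthase, rose by 1.68 (SE 0.10, limma, adjusted p = 7.94e-22), while *Ormdl3* and *Ormdl1*, which restrain the enzyme of the committed step, changed by -0.93 (SE 0.05, adjusted p = 1.35e-24) and -0.79 (SE 0.07, adjusted p = 5.57e-16). *Map3k8*[D270A] cells had 4 up and 7 down, *Elk1*-/-*Elk4*-/- cells 5 and 4, and RSKi47 4 and 6. *Cers6* rose by 1.47 (SE 0.09, adjusted p = 1.98e-21) and 1.29 (SE 0.11, adjusted p = 1.74e-15) in the former 2 arms.

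Of 16 genes of ceramide breakdown and conversion, 15 were tested, and at 2 h 5 rose and 7 fell in WT (median -0.04), 5 and 8 in *Map3k8*[D270A] cells, 4 and 7 in *Elk1*-/-*Elk4*-/- cells, and 5 and 7 with RSKi47. Those with the largest rises use ceramide to make other sphingolipids. *Sgms1* and *Sgms2*, the sphingomyelin synthases, rose by 1.50 (SE 0.07, limma, adjusted p = 2.43e-25) and 1.68 (SE 0.11, adjusted p = 1.03e-19) in WT, and *Ugcg*, which makes glucosylceramide, by 1.16 (SE 0.07, adjusted p = 1.81e-22). *Sgms1* was already up by 1.63 (SE 0.07, adjusted p = 8.46e-29) at 1 h.

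Between *Map3k8*[D270A] and WT cells at 2 h, where 27.7% of all genes passed, the list genes called were 1 of 2 receptors, 3 of 5 export and breakdown genes, 1 of 13 synthesis genes, and 4 of 15 conversion genes, with list medians of 0.16, -0.17, 0.01, and 0.08 beside 0.01 over all genes. *S1pr2* was higher by 0.35 (SE 0.07, limma, adjusted p = 1.93e-04), *Plpp3* differed by -0.63 (SE 0.14, adjusted p = 2.48e-04), and *Sgms2* by -0.60 (SE 0.11, adjusted p = 3.17e-05). With the single WT library of replicates 7 to 9 against *Map3k8*[D270A] replicates 4 to 6 the counts were 0, 1, 0, and 0, a fit that assumes the lone library to vary like the other groups and from whose lower counts nothing is read. The 2 h response of the lists differed from WT for 1, 2, 5, and 3 genes of the 2, 5, 13, and 15 tested in *Elk1*-/-*Elk4*-/- cells (17.8% of all genes) and for 0, 1, 4, and 5 with RSKi47 (21.0%). 

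**Figure D5:**
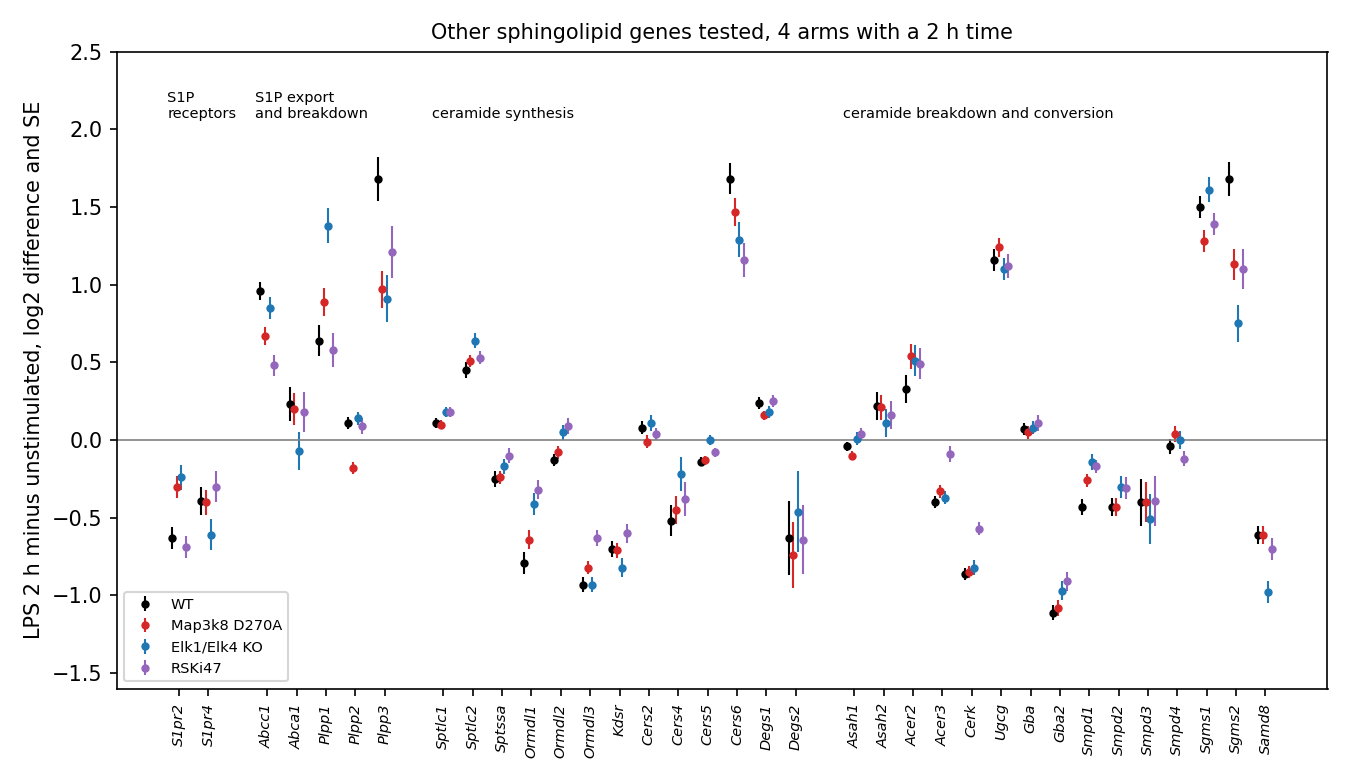
Difference between 2 h of LPS and unstimulated libraries on the log2 scale, with its SE, for the list genes tested (horizontal axis, grouped by list) in WT, *Map3k8*[D270A], *Elk1*-/-*Elk4*-/-, and RSKi47 libraries. *Cers6*, *Sgms1*, *Sgms2*, *Ugcg*, and *Plpp3* rise in the 4 arms, and *Ormdl3* falls in them, from -0.93 to -0.63.

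Across the 25 group means, the genes whose pattern was most like that of *Sphk1* among 11971 genes were *4931440P22Rik* (Pearson r = 0.952), *Ifnar1*, a chain of the type I IFN receptor (r = 0.924), *Mapkapk3*, a kinase downstream of MAP kinases (r = 0.919), *Gpr4*, a proton-sensing receptor (r = 0.916), and *Il4ra*, a chain of the IL-4 receptor (r = 0.916). Without WT at 2 h these were 0.896, 0.894, 0.774, 0.807, and 0.872. *Gpr4* lay near the filter limit (3.32), with means of 2.46 in unstimulated WT cells and 3.70 in WT at 2 h. At 2 h it was at 2.79 in *Map3k8*[D270A] cells, 3.18 in *Elk1*-/-*Elk4*-/- cells, and 3.05 with RSKi47. *Il4ra* stood at 12.82 in WT at 2 h, 11.72 in *Map3k8*[D270A] cells, 12.13 in *Elk1*-/-*Elk4*-/- cells, and 11.14 with RSKi47, from 10.57 in unstimulated WT cells. The genes most like *S1pr1* were *Speg* (r = 0.933), *Zfp715* (r = 0.918), and *Pdcd2l* (r = 0.916). The groups share libraries' processing and experiments, and these values are a description.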

How the data were processed

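RNA was taken from BMDMs, and TruSeq libraries were sequenced as single-end reads on an Illumina HiSeq instrument, per the study's methods. The submitters' processing notes name STAR 2.5.1b, RSEM 1.2.29, and DESeq2 1.10.1 with mm10, and no source used here says how the authors turned estimated counts into the deposited normalized log2 values. Depth per library is unknown, so no counting interval is given. Of the 119 columns, 0 were left unused, and 1 value above 25 (57.73, *Fosb*) was set to missing.

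Differences were fitted with limma 3.58.1 (R 4.3.3) on the genes that reached 10 on the linear scale (log2 3.32) in at least 4 of 62 libraries (WT, *Map3k8*[D270A], *Elk1*-/-*Elk4*-/-; 11884 genes) or in at least 3 of all 119 (11971 genes), with Benjamini-Hochberg adjustment over all genes and a threshold of 0.05. Tested on data of 11787 genes simulated for *Elk1*-/-*Elk4*-/- against WT cells at 2 h, the first of these fits recovered 84 of 100 genes changed by 0.5 and 99 of 100 changed by 1 on the log2 scale. The simulated libraries varied independently, unlike many same-numbered libraries here. Recovery holds for that setting only, and nothing is read from it about false calls.

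The members and gene lists were chosen with earlier results of these data known. The text names all 5 members, up to 3 genes per list with the largest difference among those past the test in a comparison described, the 5 genes most like *Sphk1* and the 3 most like *S1pr1* by Pearson correlation of group means, and targeted and marker genes as checks. The list genes *Spns2*, *Mfsd2b*, *Sgpp2*, *S1pr3*, and *S1pr5* are named because they did not pass the filter. Alternatives were other filters, normalizations, variance models, sets of libraries, single replicates left out, and a replicate block. Within an arm, same-numbered libraries deviated together (r over 0.1) in 30 of 30 WT and 18 of 18 *Nfkb1*[SS/AA] pairs of times, and not in every pair in the other arms. Promoter windows were those of RefSeq (GRCm38.p6), and exons those of GENCODE.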

Additional observations from a re-analysis of the deposited data

Results flagged for a closer look

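A library stood apart from the others of its group in 7 of the 100 pairs of a member and a group tested, where chance gives about 1 in 20. For *Sphk1* these were *Elk1*-/-*Elk4*-/- replicate 3 at 1 h, the lowest at 2.89, and RSKi47 replicate 4 at 2 h, the lowest at 3.98. For *Sphk2* it was unstimulated WT replicate 8, the lowest at 11.01. For *Sgpp1* they were unstimulated WT replicate 7, the highest at 11.14, and RSKi47 replicate 4 at 1 h, the lowest at 10.57. For *S1pr1* they were WT replicate 6 at 2 h, the highest at 10.61, and unstimulated *Map3k8*[D270A] replicate 4, the lowest at 10.77. WT replicate 6 at 2 h was also the library with the most *Sphk1*, at 9.66.

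Responses to LPS differed between arms in 12 of 55 comparisons (limma), where 2.40% to 21.0% of all genes passed. Of these, 8 are differences from the WT response, which are a description here, and 3 of the 8 are *Sphk1*. The count is thus partly fixed by the choice of the members, and nothing is read from it. At 2 h the *Sphk1* response differed from WT by -3.54 in *Elk1*-/-*Elk4*-/- cells and by -4.61 with RSKi47, both resting on the WT libraries that chose the gene, and by -1.07 between RSKi47 and *Elk1*-/-*Elk4*-/- cells. At 1 h it differed from WT by -0.75 in *Nfkb1*[SS/AA] cells, which rests on WT libraries in the same way. The *S1pr1* response at 2 h differed from WT by -0.51 in *Elk1*-/-*Elk4*-/- cells and by -0.43 with RSKi47, and at 1 h by 0.36 with PD0325901 from WT and by -0.47 between RSKi47 and PD0325901. Both use 70 min of PD0325901 alone as reference, and with 10 min they were 0.01 and -0.12. The *Sphk2* response differed by 0.18 between *Elk1*-/-*Elk4*-/- cells and WT and by -0.23 between RSKi47 and *Elk1*-/-*Elk4*-/- cells at 2 h, and by -0.22 between PD0325901 and *Nfkb1*[SS/AA] cells at 1 h, which was 0.03 with the 10 min reference. The *Sgpp1* response differed by 0.23 between RSKi47 and WT at 2 h.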

How the results depend on the processing

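The 210 results of the members put through the test include comparisons of *Sphk1* with WT and differences from the WT response. Those are a description here, so nothing is read from the number that passed. Of the 210, 87 passed, and over their 3940 alternatives 157 calls were lost, 53 gained, and 13 turned in direction. Of these, 7 concern *Sgpl1* with quantile normalization: -0.23 and -0.37 at 1 and 2 h in *Elk1*-/-*Elk4*-/- cells, -0.21 in *Nfkb1*[SS/AA] cells, -0.22 with PD0325901, -0.20 and -0.28 at 1 and 2 h with RSKi47, and 0.09 for RSKi47 against *Nfkb1*[SS/AA] cells. The other 6 turned with 10 min instead of 70 min of PD0325901 alone as the reference, an alternative chosen after seeing the data: *S1pr1* with PD0325901 at 1 h (-0.06) and its response against *Nfkb1*[SS/AA] cells (-0.12), and the *Sphk2* responses of PD0325901 against *Elk1*-/-*Elk4*-/- (0.16), *Nfkb1*[SS/AA] (0.03), and WT (0.15) cells and of RSKi47 against PD0325901 (-0.10). The untested differences at 2 h also turned, to -0.26 in WT and -0.20 in *Map3k8*[D270A] cells, and the cause was not tested. *Ormdl1* between *Map3k8*[D270A] and WT cells at 2 h turned to -0.12 with WT replicates 7 to 9 only.

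For *Sphk1*, the *Nfkb1*[SS/AA] response relative to WT (a description, since WT led to its choice) was -0.75 with no filter, -0.70 with quantile normalization, and -0.54 with WT replicates 7 to 9 only, and -0.85 to -0.64 with single replicates left out. Its level against WT unstimulated was 0.39 with only the groups compared and 0.42 with WT replicates 7 to 9 (0.30 to 0.44 with single replicates left out), and at 1 h -0.60 with WT replicates 4 to 6 (-0.47 to -0.28). The PD0325901 response at 1 h was 0.50 (adjusted p = 0.035) with quantile normalization 0.42 (0.0441) with only the groups compared, and 0.64 (0.00817) against 10 min of inhibitor alone, and its level against WT at 1 h was -0.49 with WT replicates 4 to 6. The RSKi47 difference was 0.53 to 0.81 at 2 h and 0.43 to 0.62 against WT at 0.5 h with single replicates left out. With WT replicates 7 to 9 only, the *S1pr1* responses relative to WT were -0.36 (*Elk1*-/-*Elk4*-/-) and -0.28 (RSKi47), with a single WT library at 2 h and no test. The causes were not tested. Counts over lists moved by more than 1.5 times in 63 of 604 alternatives.

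With a replicate block (limma, consensus correlation 0.361 and 0.318), *Sphk1* at 1 h between RSKi47 and *Nfkb1*[SS/AA] cells lost its call (0.45, adjusted p = 0.052), and 9 calls of members were gained: *S1pr1* with RSKi47 at 1 h (-0.18, adjusted p = 0.0137), in *Nfkb1*[SS/AA] cells at 0.5 h, and in the 1 h responses of PD0325901 against *Elk1*-/-*Elk4*-/- cells (0.33, 0.00894) and RSKi47 against *Nfkb1*[SS/AA] cells (-0.24, 0.0317), *Sgpp1* in *Nfkb1*[SS/AA] cells at 0.5 h, and *Sgpl1* in 4 comparisons with *Elk1*-/-*Elk4*-/- or RSKi47 libraries. Same-numbered libraries deviated together in 34 of 36 *Map3k8*[D270A], 20 of 21 RSKi47, 20 of 24 *Elk1*-/-*Elk4*-/-, and 14 of 33 PD0325901 pairs. Normalized values carry no depth, so the precision of *Sphk1* near the filter limit cannot be given from counts.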
